A study of Mus musculus with 18 samples.

Results

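The subunits of the glutamate and GABA receptors were followed through ribosome-bound RNA and whole-tissue RNA of mouse brain, retina and choroid. Members were taken by gene symbol: the AMPA (Gria), NMDA (Grin), kainate (Grik), delta (Grid) and metabotropic (Grm) glutamate receptor genes, the alpha, beta, gamma, delta, epsilon and rho GABA-A subunit genes (Gabr) and both GABA-B genes (Gabbr). In all, 44 of the 14411 genes listed in any of the 3 tissue tables were members. Of these, 39 were listed among the 13957 genes of Brain, 39 among the 12827 of Retina and 5 among the 7569 of Choroid.

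All libraries came from mice of the genotype Cdh5(PAC)-cre/ERT2+; NuTRAP+ that had been given tamoxifen; no library from mice without Cre, without tamoxifen or without the reporter was analysed here. Cdh5(PAC)-cre/ERT2 is a recombinase that tamoxifen switches on and that the promoter of an endothelial cadherin drives, and NuTRAP then tags ribosomes with GFP in the recombined cells. The 6 groups were the Positive fraction, which is RNA pulled down with an antibody against GFP, and the Input fraction, which is RNA of the same supernatant set aside before the pull-down, in each of Brain, Retina and Choroid, with 3 libraries a group. The labels call these biological replicates and give neither the number, age nor sex of the animals, so that p-values measure the spread between these libraries. Marker sums were set beside the labels, endothelial ones for the fractions and photoreceptor and pigment epithelium ones for Retina and Choroid. No such check of the Brain label is given. The 15 endothelial markers summed to 0.646 to 0.687% of listed counts in Brain Positive and 0.0194 to 0.0226% in Brain Input libraries, to 0.333 to 0.662% in Retina Positive and 0.0254 to 0.0307% in Retina Input libraries, and (14 listed) to 1.74 to 2.50% in Choroid Positive and 0.226 to 0.406% in Choroid Input libraries. Retina Positive 3 stood apart within its group with 0.662% against 0.333 and 0.334%, and Choroid Positive 2 was the shallowest library of all. Listed totals were 31111437 to 40112343 expected counts in Brain Positive, 28128866 to 43219831 in Brain Input, 12325658 to 26069649 in Retina Positive, 20915469 to 36157140 in Retina Input, 713733 to 2717264 in Choroid Positive and 2018126 to 10031274 in Choroid Input libraries. Photoreceptor genes made up 3.52 to 5.83% of Retina Positive and 4.44 to 5.35% of Retina Input counts, and pigment epithelium genes 0.214 to 0.355% of Choroid Positive and 2.74 to 4.48% of Choroid Input counts. In whole tissue, fewer cells of a type and less RNA per cell cannot be told apart.

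Glutamate is the main excitatory transmitter of brain and retina and GABA the main inhibitory one outside the spinal cord. AMPA, kainate and NMDA receptors are cation channels assembled from several subunits, and the metabotropic receptors act through G proteins. GABA-A receptors are chloride channels with a mixed subunit make-up, GABA-B receptors are obligate pairs of Gabbr1 and Gabbr2 products that act through G proteins, and the rho subunits form slow GABA channels best known from retinal bipolar cells. In the retina, the metabotropic receptor encoded by Grm6 receives the photoreceptor signal on ON bipolar cells, whereas kainate and AMPA receptors receive it on OFF bipolar cells.

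By family, the members were 4 AMPA, 7 NMDA, 5 kainate, 2 delta, 8 metabotropic, 13 GABA-A, 3 rho and 2 GABA-B genes. Brain and Retina shared 34 of them. Listed in the Brain table alone were Gabra5, an alpha subunit of hippocampal tonic receptors, Gabra6, an alpha subunit of cerebellar granule cells, Gabrb1, a beta subunit, Grin2a, an NMDA subunit, and Grm3, a metabotropic receptor that inhibits adenylyl cyclase. Listed in the Retina table alone were Grm6, Gabrg3, a gamma subunit, and the rho genes Gabrr1, Gabrr2 and Gabrr3. A gene entered a table when its raw value reached 50 in every library of at least 1 fraction, so absence from a table means a value below that minimum and not absence of the transcript. In Brain, 38 members reached it in both fractions and Grin2a in Input alone. In Retina, 33 reached it in both fractions and 6 in Input alone, Grik4, Gabrg3, Grin2b, Grin2c and Grin3b among them. All 5 Choroid members, among them Gabbr1, Gabra4, Grik1 and Grik5, were listed through Input alone, and no member in any table was listed through Positive alone.

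Some of the GABA-A genes are neighbours. On GRCm38.p6, Gabrg1, Gabra2, Gabra4 and Gabrb1 lie within chr5:70751047-72149572 (1.399 Mb) and the rho genes Gabrr2 and Gabrr1 within chr4:33057712-33163588 (0.106 Mb). Exons of 14 of the 44 members overlap an annotated gene on the opposite strand, among them Gabra4 with Gabrb1, Grin1 with Grin1os, Gabrr3 with 1700022E09Rik, Grm6 with Gm12660 and Grin3b with Tmem259. Whether strand was used in counting is not given in the sources used here, so reads in these overlaps cannot be told apart.

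The order of levels was taken per kilobase of exon, as TMM-normalised CPM (counts scaled to a library of fixed size) per kb. In Brain Positive libraries Gabbr1, the agonist-binding GABA-B subunit, led with 48.6 ± 2.67 CPM per kb, followed by Grik5, a high-affinity kainate subunit, with 28.4 ± 1.14 and Gria1, an AMPA subunit, with 27.1 ± 0.616 (SD, n = 3 each). In Brain Input libraries the order was Gabbr1 with 97.8 ± 3.80, Gria1 with 68.7 ± 1.27 and Grin1, the obligatory NMDA subunit, with 56.6 ± 1.90 CPM per kb, and Grik5 followed at 55.5 ± 1.48 CPM per kb. Grik5 and Gria1 in Positive, and Grin1 and Grik5 in Input, differed by about their SD. In Retina Positive libraries Gabrr1 stood at 72.2 ± 14.7, Gabrr2 at 51.3 ± 11.6 and Gabbr1 at 26.2 ± 2.14 CPM per kb. In Retina Input libraries the same genes stood at 42.0 ± 3.02, 30.6 ± 2.36 and 30.3 ± 0.285 CPM per kb, the last 2 within their SD of each other. Grm6 followed Gabbr1 in Retina Positive with 23.6 ± 1.81 CPM per kb and had 21.5 ± 0.909 CPM per kb in Retina Input. The lowest levels were those of Grin2a in Brain, at 0.0957 ± 0.0269 in Positive and 0.245 ± 0.0717 CPM per kb in Input, and of Grin2b, an NMDA subunit, in Retina, at 0.125 ± 0.0336 in Positive and 0.0884 ± 0.0153 CPM per kb in Input. In Choroid Positive libraries Grik5 had 6.25 ± 3.92 and Gabbr1 5.24 ± 2.60 CPM per kb, within their SD of each other, and in Choroid Input libraries Grik5 had 10.5 ± 1.68 and Gabbr1 7.02 ± 0.801 CPM per kb. With the longest transcript as length, Grin1 moved to rank 2 in both Brain fractions and Gabbr1 to rank 1 in Retina Input.

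The comparison of Positive with Input asks which transcripts are more or less abundant on tagged ribosomes than in the tissue. In Brain, most receptor subunits fell. Of 39 members, 38 were lower in Positive than in Input and none was higher (edgeR quasi-likelihood test, Benjamini-Hochberg adjusted p under 0.05 over all genes tested), where 39.7% of all 13957 genes were lower and 38.3% higher. The median log2 fold change was -1.33 for the members and -0.02 for all genes. By at least 1 on the log2 scale 33 members were lower, as were 15.3% of all genes. In 38 members all Positive values lay below all Input values, which held for 41.1% of all genes. No member's call changed when any 1 library was left out.

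Among the ionotropic glutamate receptors, the 4 AMPA genes were lower by 1.32 to 1.63 on the log2 scale. Gria2, whose edited subunit keeps calcium from passing, had 113, 103 and 137 CPM in Brain Positive libraries, against 333, 389 and 366 CPM in Brain Input libraries. All Positive libraries were far below all Input libraries, and the log2 fold change was -1.63 (SE 0.107, adjusted p = 3.71e-07). Grik2, the most widely used kainate subunit, had 14.7, 14.3 and 19.5 CPM in Positive, against 48.7, 52.3 and 51.5 CPM in Input (log2 -1.65, SE 0.118, adjusted p = 6.67e-07). The other kainate genes changed less, with Grik1 at -0.95, Grik5 at -0.97, Grik3 at -0.99 and Grik4 at -1.11. Of the 7 NMDA genes 6 were lower. Grin1 averaged 213 ± 13 CPM in Positive and 549 ± 18.4 CPM in Input libraries (SD, n = 3 each; log2 -1.37), and Grin2a 1.72 ± 0.482 CPM in Positive and 4.39 ± 1.29 CPM in Input libraries (log2 -1.36). Grin2a was listed through Input alone, so its lower Positive value, which is among the 6 and the 38, is a description of a gene chosen for being high in Input. Grin2d, an NMDA subunit of interneurons and midline regions, was the least lower of the members that passed, at 22.6, 24.5 and 21.6 CPM in Positive against 29.0, 33.2 and 35.1 CPM in Input (log2 -0.50, SE 0.0957, adjusted p = 0.000772). Grin3b, a glycine-binding NMDA subunit, was the exception: it had 4.29, 4.23 and 4.54 CPM in Positive, against 5.35, 4.23 and 4.45 CPM in Input. Its groups overlapped, and its log2 fold change of -0.10 (SE 0.158, adjusted p = 0.585) did not pass. Its exons overlap Tmem259 on the opposite strand, and reads in that overlap cannot be told apart. The delta receptor gene Grid1 was lower by 1.21 on the log2 scale.

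**Figure D1:**
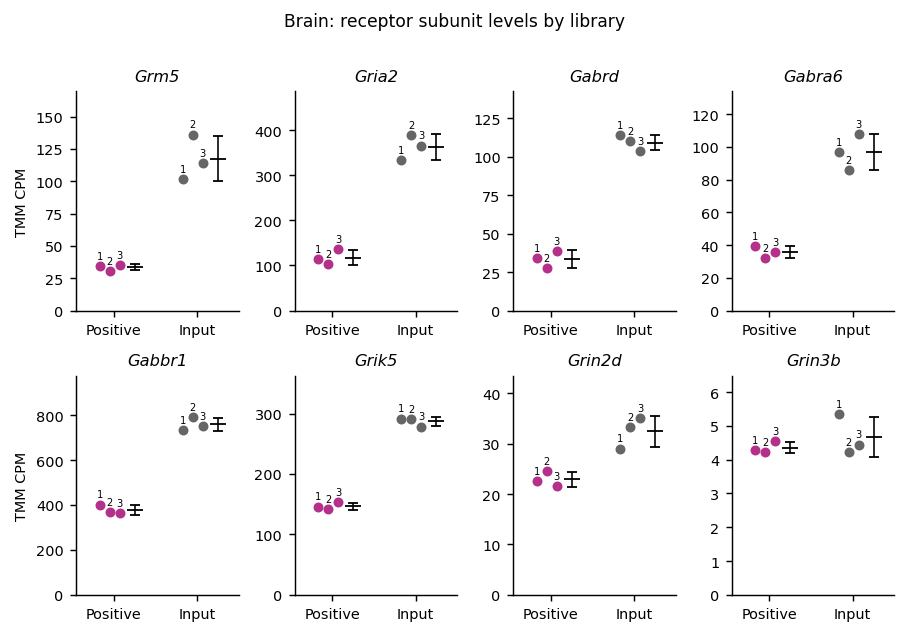
Levels of 8 receptor subunit genes in Brain, as TMM-normalised CPM (linear axis from 0), with 1 point per library numbered by replicate and the mean with its SD beside the points. Positive libraries lie below all Input libraries for each gene except Grin3b, whose groups overlap at about 4 to 5 CPM.

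All 7 metabotropic genes were lower, by 1.06 (Grm8) to 1.81 (Grm5) on the log2 scale. Grm5, a receptor that couples to phospholipase C, had 34.6, 30.7 and 35.3 CPM in Brain Positive, against 102, 136 and 114 CPM in Brain Input libraries. Its Positive libraries held 28.5% of the Input level, the smallest share of any member in Brain (log2 -1.81, SE 0.109, adjusted p = 1.96e-07). Grm3 averaged 14.8 ± 2.56 CPM in Positive and 40.1 ± 1.46 CPM in Input libraries (SD, n = 3 each; log2 -1.43).

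All 12 GABA-A genes were lower, with a median log2 fold change of -1.46. Gabrd, the delta subunit of receptors outside synapses, had 34.1, 27.7 and 38.8 CPM in Positive, against 114, 110 and 104 CPM in Input (log2 -1.71, SE 0.111, adjusted p = 3.51e-07). Gabra4, the alpha subunit that often pairs with it, had 25.3, 23.4 and 22.2 CPM in Positive, against 64.9, 79.9 and 66.0 CPM in Input (log2 -1.58, SE 0.0962, adjusted p = 2.21e-07). Both fell in every library. Gabrb2, the beta subunit of the most common receptor type, had 95.8, 83.5 and 101 CPM in Positive, against 269, 280 and 280 CPM in Input (log2 -1.57, SE 0.0789, adjusted p = 5.54e-08). Gabra2 was a low gene with the same pattern, at 5.25, 3.71 and 5.05 CPM in Positive against 12.3, 14.7 and 13.8 CPM in Input (log2 -1.55, SE 0.157, adjusted p = 8.84e-06). Gabra6 averaged 35.7 ± 3.48 CPM in Positive and 96.7 ± 11.1 CPM in Input (log2 -1.44), Gabra5 19.96 ± 4.44 CPM in Positive and 40.3 ± 4.43 CPM in Input (log2 -1.02), and Gabrb1 3.37 ± 0.427 CPM in Positive and 8.15 ± 1.30 CPM in Input (log2 -1.27; SD, n = 3 each). Of the GABA-B genes, Gabbr1 had 402, 367 and 364 CPM in Positive, against 734, 792 and 752 CPM in Input (log2 -1.01, SE 0.0623, adjusted p = 2.40e-07), and Gabbr2 was lower by 1.14 on the log2 scale.

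Together the 39 Brain members held 0.194 to 0.216% of listed counts in Positive and 0.520 to 0.559% in Input libraries. Neuronal markers moved with them: all 11 measured were lower in Positive, with a median log2 fold change of -1.22, and they summed to 0.383 to 0.428% of counts in Positive and 1.00 to 1.04% in Input libraries. None of them was at 0 in Positive. Glial markers were mostly lower as well: 9 of 10 oligodendrocyte lineage markers (median log2 -1.86), 9 of 10 microglial markers (median log2 -1.66) and 7 of 10 astrocyte markers (median log2 -0.61), with 1, 1 and 3 higher. The part of these markers in the receptor result was not tested.

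In Retina, the picture was mixed. Of 39 members, 14 passed, 3 as higher in Positive (Gabrr1, Gabrr2 and Grid1) and 11 as lower. Of all 12827 genes 26.1% passed, 15.3% as higher and 10.8% as lower. The median log2 fold change was -0.34 for the members and -0.03 for all genes. All Positive values lay below all Input values in 21 members and above them in 3, each of which held for 22.7% of all genes. The 21 include Grin2c and Gabrg3, listed through Input alone, so their lower Positive values describe genes chosen for being high in Input.

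The rho subunits gave the increases with the greatest size and, in 1 case, the greatest decrease. Gabrr1 had 177, 191 and 127 CPM in Retina Positive libraries, against 104, 92.2 and 91.7 CPM in Retina Input libraries. The groups did not overlap, with Positive 3 nearest to Input, and Positive held 172% of the Input level (log2 0.78, SE 0.147, adjusted p = 0.00639). Gabrr2, its neighbour on chromosome 4, had 117, 127 and 80.5 CPM in Positive, against 69.4, 59.5 and 64.5 CPM in Input (log2 0.74, SE 0.161, adjusted p = 0.0118). Again Positive 3 was the lowest of its group and still above every Input library. Gabrr3, on chromosome 16, went the other way: it had 6.32, 5.30 and 4.58 CPM in Positive, against 12.9, 10.3 and 9.61 CPM in Input. Here all Positive libraries were below all Input libraries, at 49.4% of the Input level (log2 -1.02, SE 0.201, adjusted p = 0.00765). Without Positive 3, which stood apart in its endothelial markers, the log2 fold changes were 0.95 for Gabrr1, 0.92 for Gabrr2 and -0.89 for Gabrr3, all past the threshold. The Gabrr2 call was lost without Input 2 (log2 0.69, adjusted p = 0.0607), and the calls of Gabrr1 and Gabrr3 held without any 1 library.

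The 250 bases before an annotated transcript start of each of the 3 rho genes are shown because 2 of them are neighbours that rose together and the third fell. They are RefSeq sequences on GRCm38.p6, plus strand, from chr4:33132306-33132555 (Gabrr1), chr4:33062862-33063111 (Gabrr2) and chr16:59407132-59407381 (Gabrr3), in lower case with a match to the motif TAATCC on either strand in capitals. The Gabrr2 window precedes the start at 33063112 that the deposited file gives, while RefSeq places the outermost start of that gene at 33057712.
Gabrr1: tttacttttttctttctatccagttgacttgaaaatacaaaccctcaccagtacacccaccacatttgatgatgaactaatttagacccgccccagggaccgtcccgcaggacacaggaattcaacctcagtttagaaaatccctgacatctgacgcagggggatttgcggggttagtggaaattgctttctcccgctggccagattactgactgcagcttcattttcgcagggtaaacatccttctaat
Gabrr2: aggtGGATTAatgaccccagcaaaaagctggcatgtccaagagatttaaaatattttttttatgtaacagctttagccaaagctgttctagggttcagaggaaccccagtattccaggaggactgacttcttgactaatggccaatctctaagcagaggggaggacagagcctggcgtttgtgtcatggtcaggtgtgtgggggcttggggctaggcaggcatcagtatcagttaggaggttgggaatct
Gabrr3: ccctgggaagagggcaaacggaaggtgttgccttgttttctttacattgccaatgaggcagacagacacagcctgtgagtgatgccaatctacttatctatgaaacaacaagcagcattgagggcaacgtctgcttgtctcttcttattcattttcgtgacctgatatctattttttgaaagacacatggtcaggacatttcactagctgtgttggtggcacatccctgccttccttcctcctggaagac
TAATCC is the core letters that the photoreceptor and bipolar cell factors CRX and OTX2 bind. It stands in 6.25% of 32851 promoter windows of this length and in 2 of the 36 windows of the 29 members in the table, those of Gabrr2 and Gabra2. The homeodomain core TAATTA, also searched on both strands, stands in 4.84% of all windows and in 1 of the 36, that of Gabrg1. These are matches of letters and not binding sites.

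Grid1, a delta receptor that binds cerebellins rather than being opened by glutamate, had 31.0, 34.0 and 27.1 CPM in Retina Positive, against 23.7, 22.6 and 24.0 CPM in Retina Input. The groups did not overlap, but the margin was narrow (log2 0.39, SE 0.116, adjusted p = 0.0424). The call was lost in the fit with the replicate block (log2 0.38, adjusted p = 0.0744) and without Positive 1, Positive 2, Input 1, Input 2 or Input 3 (log2 0.31 to 0.41). Grm6 had 133, 134 and 117 CPM in Positive, against 121, 111 and 118 CPM in Input, so that its groups overlapped, and its log2 fold change of 0.14 (SE 0.0828, adjusted p = 0.259) did not pass. Grm5, the member lowered most in Brain, had a log2 fold change of 0.26 (SE 0.155, adjusted p = 0.261) in Retina. Without Positive 3 it passed as higher (log2 0.41, adjusted p = 0.0283).

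**Figure D2:**
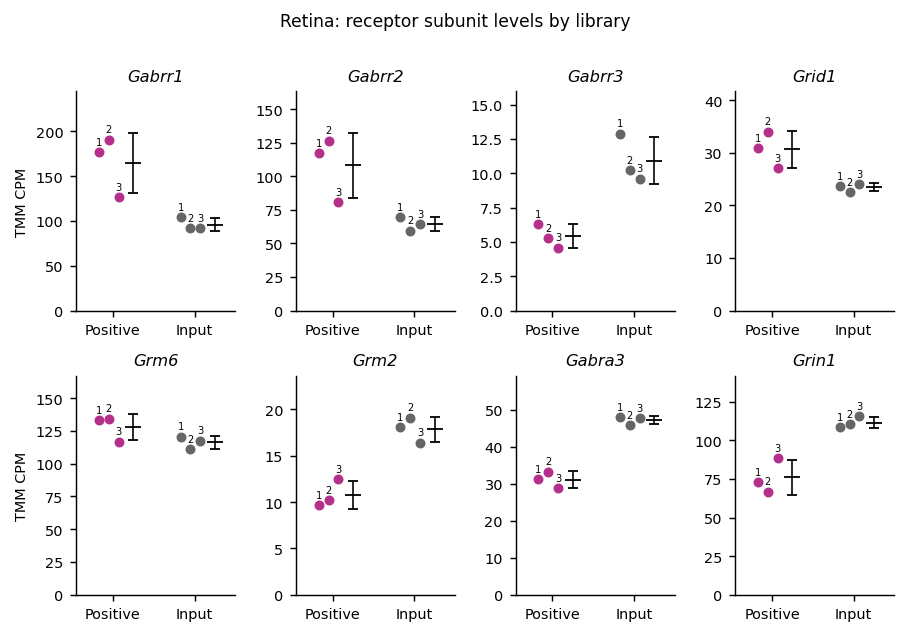
Levels of 8 receptor subunit genes in Retina, as TMM-normalised CPM (linear axis from 0), with 1 point per library numbered by replicate and the mean with its SD beside the points. Gabrr1 and Gabrr2 are higher in every Positive library than in any Input library, Gabrr3 lies below 7 CPM in Positive and above 9 CPM in Input, and the Grm6 groups overlap.

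Of the metabotropic genes 3 were lower in Retina Positive. Grm2, which inhibits adenylyl cyclase, had 9.69, 10.2 and 12.5 CPM in Positive, against 18.1, 19.1 and 16.4 CPM in Input (log2 -0.73, SE 0.149, adjusted p = 0.00922). Grm7, a presynaptic receptor of low glutamate affinity, had 16.2, 14.0 and 11.5 CPM in Positive, against 20.1, 20.7 and 20.5 CPM in Input (log2 -0.56, SE 0.150, adjusted p = 0.0284). In both the groups did not overlap. The call of Grm2 was lost without Input 2 (log2 -0.68, adjusted p = 0.0525). The call of Grm7 (log2 -0.57 to -0.55) was lost without Positive 2, Input 1, Input 2 or Input 3.

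Of the GABA-A genes other than rho, 2 of 10 were lower. Gabra3, an alpha subunit, had 31.2, 33.3 and 28.9 CPM in Retina Positive, against 48.1, 45.9 and 47.8 CPM in Retina Input (log2 -0.60, SE 0.0931, adjusted p = 0.00245). Gabrb2 had 43.0, 44.7 and 42.2 CPM in Positive, against 58.1, 65 and 57.6 CPM in Input (log2 -0.48, SE 0.0870, adjusted p = 0.00543). Both groups of both genes were well separated, and neither call depended on a single library. The other 8 ranged in log2 fold change from -0.50 (Gabra2) to -0.04 (Gabra4). Gabrg3, with 1.84, 1.01 and 2.11 CPM in Positive against 2.14, 2.16 and 2.49 CPM in Input, was among those that did not pass (log2 -0.40, SE 0.299, adjusted p = 0.366). Neither GABA-B gene passed, with log2 fold changes of -0.21 for Gabbr1 and -0.20 for Gabbr2.

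Among the ionotropic glutamate receptors of Retina, Grin1 had 72.8, 66.8 and 88.5 CPM in Positive, against 108, 110 and 116 CPM in Input (log2 -0.55, SE 0.109, adjusted p = 0.00793). Its groups were separate and its call held without any 1 library. Grik1, the kainate subunit of OFF bipolar cells, had 64.6, 72.7 and 55.2 CPM in Positive, against 90.8, 86.1 and 91.8 CPM in Input (log2 -0.48, SE 0.107, adjusted p = 0.0129). The Grik1 call was lost without Input 1 (log2 -0.47, adjusted p = 0.0549) or Input 3 (log2 -0.46, adjusted p = 0.0527). Gria4 was lower by 0.42, Gria3 by 0.39 and Grik5 by 0.33 on the log2 scale. Each of these 3 lost its call in 4 or 5 of the fits that leave out 1 library: Gria3 without Positive 1, Positive 2, Input 1 or Input 3 (log2 -0.38 to -0.33), Gria4 without any library but Positive 3 (log2 -0.44 to -0.33), and Grik5 without Positive 2, Input 1, Input 2 or Input 3 (log2 -0.36 to -0.26). With the replicate block, 3 more members passed, Gria2 (log2 -0.36, adjusted p = 0.0383), Grik2 (log2 -0.61, adjusted p = 0.0316) and Grin2d (log2 -0.49, adjusted p = 0.0296).

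Over all Retina members the count of calls was 7 without Input 1, Input 2 or Input 3, 9 without Positive 2, 14 without Positive 1 and 16 without Positive 3. The members held 0.157 to 0.192% of listed counts in Retina Positive and 0.197 to 0.215% in Retina Input libraries. Of 14 markers of bipolar, amacrine, horizontal and ganglion cells 5 were higher and 2 lower in Positive, and the list summed to 0.224 to 0.262% of counts in Positive and 0.189 to 0.199% in Input libraries, with none at 0. The higher ones included the bipolar markers Pcp2 (log2 1.17), Cabp5 (log2 0.78) and Prkca (log2 0.48), and Isl1 (log2 0.58). The lower ones were Calb1 (log2 -0.54) and Lhx1 (log2 -0.999). Of 11 neuronal markers 6 were lower and none higher, with sums of 0.402 to 0.475% in Positive and 0.545 to 0.565% in Input libraries. Their part in the rho and other receptor results was not tested.

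**Figure D3:**
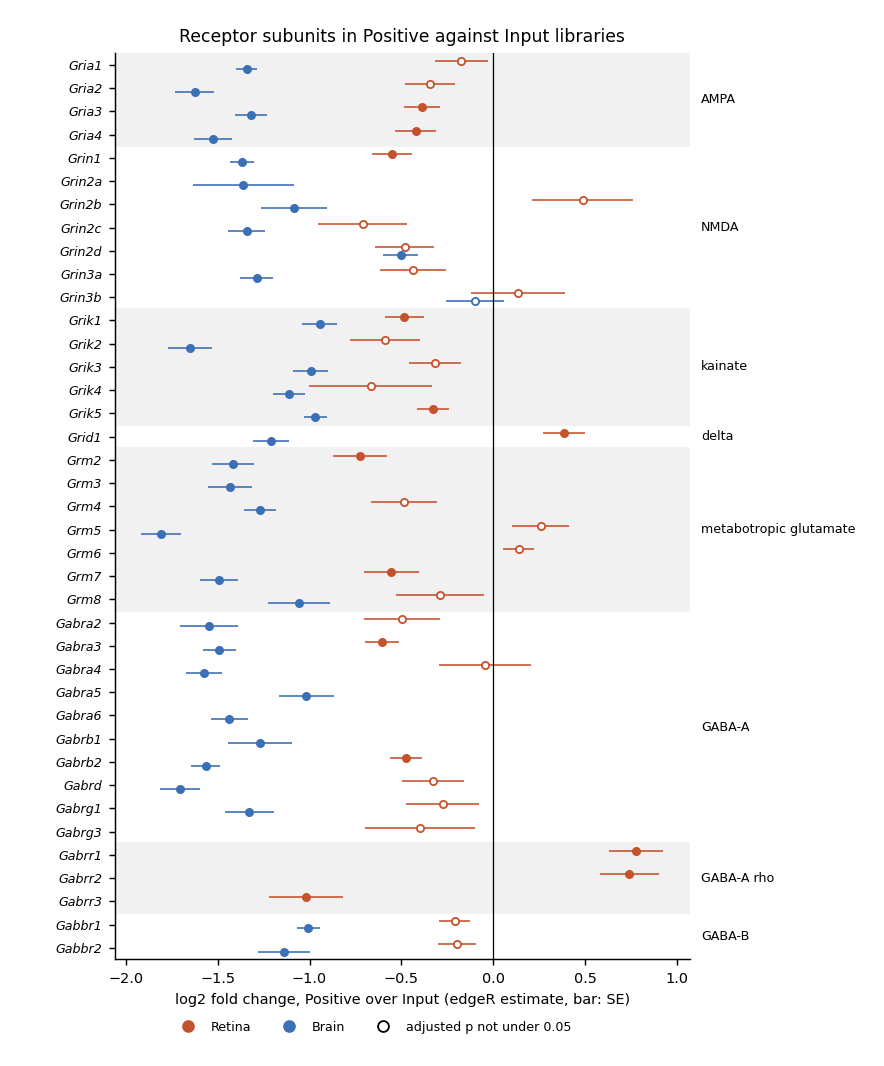
Log2 fold change of Positive over Input for 39 receptor subunits (x axis, edgeR estimate with its SE) in Retina and in Brain, grouped by family, with open circles where the adjusted p is not under 0.05. Brain estimates, drawn for the genes listed in Brain, lie left of 0 down to -1.81 for Grm5, while Retina estimates run between -1.02 for Gabrr3 and 0.78 for Gabrr1.

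The difference between Retina and Brain in Positive over Input was tested as an interaction over the 34 members listed in both tables. The difference was above 0 in all 34, and 29 passed as higher in Retina, with none lower. Higher here means a less negative or more positive change, and not a higher level. In Retina alone, 11 of 39 members were lower in Positive and 3 were higher. Of all 12438 genes listed in both, 28.9% were higher and 20.0% lower. By at least 1 on the log2 scale 15 members were higher, as were 9.66% of all genes. The median difference was 0.97 on the log2 scale for the members and 0.09 for all genes. Neuronal markers differed likewise: the difference was higher for all 11 measured and lower for none, with a median of 0.96. In Retina alone 6 of these markers were lower in Positive and none was higher. Their part in the receptor difference was not tested. Among the members, the difference passed for all 4 AMPA, all 9 GABA-A and both GABA-B genes and for Grid1. It also passed for 4 of 6 NMDA, 4 of 5 kainate and 5 of 6 metabotropic genes. The largest differences were those of Grm5 (2.10, SE 0.194, adjusted p = 6.52e-06) and Grid1 (1.63, SE 0.152, adjusted p = 7.04e-06). Grid1 averaged 32.5 ± 3.47 CPM in Retina Positive and 24.5 ± 0.793 CPM in Retina Input libraries, and 24.8 ± 1.33 CPM in Brain Positive and 58.4 ± 7.83 CPM in Brain Input libraries (SD, n = 3 each, scaled over the Retina and Brain libraries together). Thus the fractions differed in opposite directions in the 2 tissues. The Retina call of Grid1 was lost with the replicate block and without any 1 Retina library but Positive 3. Grin2b followed with 1.60, Gabra4 with 1.56 and Gabrd with 1.41. In Retina, Grin2b had the lowest level per kb, was listed through Input alone and did not pass (log2 0.49, adjusted p = 0.237).

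Grik4, Grin2d, Grin3b and Grm8 were among the 5 that did not pass. Grin2d had the smallest difference, 0.06 (SE 0.190, adjusted p = 0.814), with log2 fold changes of -0.48 in Retina, which did not pass there, and -0.50 in Brain. Grm8, a presynaptic metabotropic receptor, had 0.80 (SE 0.319, adjusted p = 0.0542). It passed in the DESeq2 Wald test (0.77, adjusted p = 0.0454) and with the replicate block (0.80, adjusted p = 0.0229). It also passed without Brain Positive 1 (0.97), without Retina Positive 3 (1.12) and without Retina Input 1 (1.10). The call of Grin2c was lost without Retina Positive 1 (0.56). Without Retina Positive 3, 30 members passed.

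Retina Input was compared with Brain Input across tables that had been filtered separately, over the genes in both. Whole retina held less of most receptor transcripts than whole brain: 32 of 34 members passed, 30 as lower and 2 as higher, and of all genes 75.6% passed, 37.8% as lower and 37.8% as higher. The median log2 fold change was -1.76 for the members and -0.00 for all genes. Grik1 was higher in Retina, with 94.7, 90.2 and 96.4 CPM in Retina Input, against 22.9, 23.6 and 24.0 CPM in Brain Input (log2 2.00, SE 0.0944, adjusted p = 1.17e-09). So was Grm8, with 40.2, 27.5 and 28.2 CPM in Retina Input, against 13.4, 15.0 and 16.7 CPM in Brain Input (log2 1.09, SE 0.223, adjusted p = 0.000688). The groups of both genes were separate.

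The greatest decreases included 2 genes known from cerebellar granule cells. Grin2c, an NMDA subunit of these cells, had 5.85, 4.78 and 5.17 CPM in Retina Input, against 192, 183 and 196 CPM in Brain Input (log2 -5.17, SE 0.151, adjusted p = 2.65e-11). Grm4, a presynaptic metabotropic receptor of the same cells, had 10.2, 10.6 and 9.84 CPM in Retina Input, against 81.4, 96.4 and 98.9 CPM in Brain Input (log2 -3.17, SE 0.121, adjusted p = 1.87e-10). Both were low in every Retina library. Grin2b was lower by 2.81, Gria1 by 2.78, Grik3, a kainate subunit, by 2.63 and Gabrd by 2.54 on the log2 scale. Grin2d (-0.11) and Grin3b (-0.12) did not pass. Gabra2 had one of the smallest changes that passed (-0.45), and its call was lost without Brain Input 1, 2 or 3, Retina Positive 2 or Retina Input 1 (-0.47 to -0.34).

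Retina Positive against Brain Positive, again across separately filtered tables, gave 27 calls among 34 members, 6 higher and 21 lower, where 75.5% of all genes were called, 39.2% higher and 36.4% lower. The median log2 fold change was -0.70 for the members and 0.02 for all genes. Grik1 had 67.6, 76.9 and 59.2 CPM in Retina Positive, against 12.0, 12.8 and 11.2 CPM in Brain Positive (log2 2.50, SE 0.0983, adjusted p = 4.24e-10). Grm8 had 33.5, 27.3 and 18.5 CPM in Retina Positive, against 8.72, 5.58 and 7.14 CPM in Brain Positive (log2 1.89, SE 0.235, adjusted p = 1.10e-05). These were the members higher in Retina in both fractions. Gabra2 was higher by 0.64 and Grid1 by 0.38 on the log2 scale in Retina Positive, whereas the Input comparison gave -0.45 for Gabra2 and -1.25 for Grid1. The lower members were led by Grin2c (-4.48), Grm4 (-2.37), Grik4, a high-affinity kainate subunit (-1.98), Grik3 (-1.91) and Gria1 (-1.57). Grin2c and Grik4 were listed in Retina through Input alone. In Retina Positive 2 they had 25.5 and 20.7 expected counts. Gabbr2 (log2 -0.33, adjusted p = 0.0459) lost its call without Brain Positive 1, 2 or 3, Brain Input 3, Retina Positive 1 or 2, or Retina Input 2 (log2 -0.36 to -0.29). Gabrg1 (log2 -0.47) lost it without Brain Positive 1 (-0.40) or 3 (-0.40) or Retina Positive 3 (-0.33). Gria4 (log2 0.27, adjusted p = 0.0614) passed with genes below the median count left out (log2 0.27, adjusted p = 0.0456). It also passed with the replicate block (log2 0.26, adjusted p = 0.0411), without Brain Positive 3 (0.35) and without Retina Positive 2 (0.34).

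**Figure D4:**
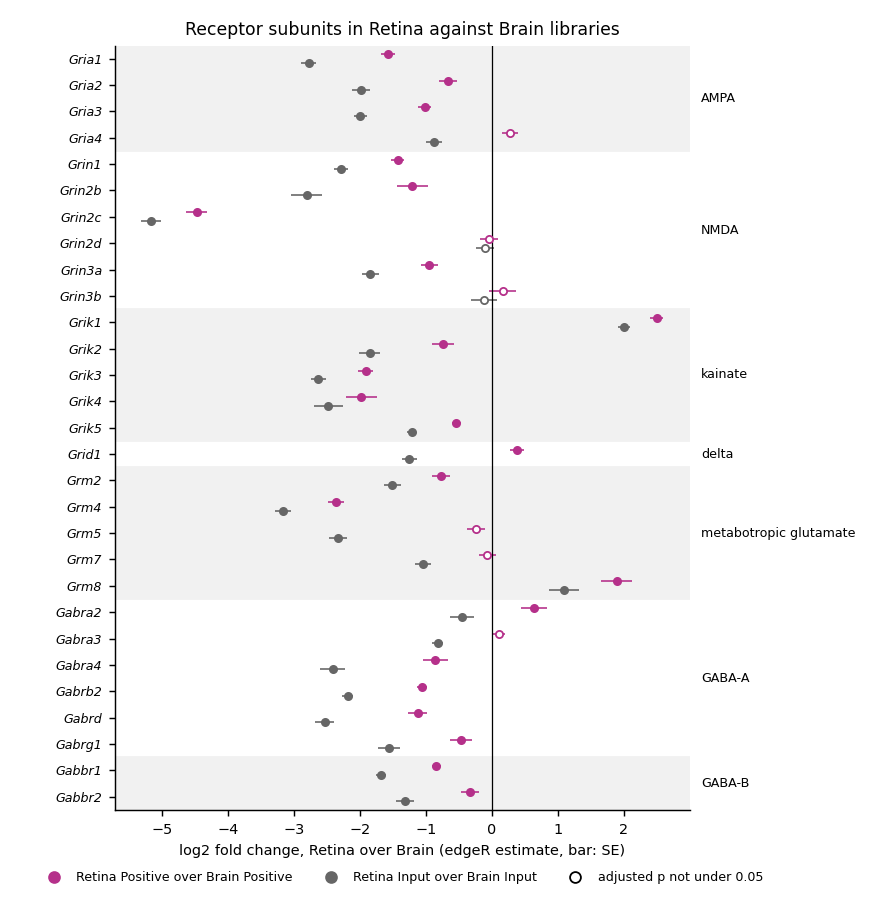
Log2 fold change of Retina over Brain for 29 of the receptor subunits listed in both tables (x axis, edgeR estimate with its SE), in Positive and in Input libraries, with open circles where the adjusted p is not under 0.05. Grik1 and Grm8 lie right of 0 in both fractions, and Grin2c lies farthest left, at -4.48 in Positive and -5.17 in Input.

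In Choroid, 3 of the 5 members were lower in Positive than in Input and none was higher, and of all 7569 genes 20.2% were lower and 16.3% higher. In these 3 all Positive values lay below all Input values, which held for 26.8% of all genes. Since every member was listed through its Input values, these counts are a description of genes that were high in Input. Grik1 had 2.93, 3.18 and 3.48 CPM in Choroid Positive, against 23.6, 47.1 and 70.1 CPM in Choroid Input (log2 -3.88, SE 0.541, adjusted p = 0.000146). Its Positive values rest on 8.2, 2.0 and 6.12 expected counts. The gene was lower in every Positive library, and its call held without any 1 library. Gabra4 had 2.93, 4.77 and 13.9 CPM in Positive, against 24.9, 30.4 and 22.8 CPM in Input (log2 -1.82, SE 0.574, adjusted p = 0.0259). Positive 3 was nearest to Input, and the call was lost without Positive 1 (log2 -1.31, adjusted p = 0.0885), Input 1 (log2 -1.85, adjusted p = 0.0692) or Input 2 (log2 -1.70, adjusted p = 0.0757).

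Grik5 had 21.6, 55.7 and 19.7 CPM in Choroid Positive, against 46.6, 63.8 and 53.0 CPM in Choroid Input (log2 -0.86, SE 0.397, adjusted p = 0.112). Positive 2, the shallowest library, overlapped the Input values, and without it Grik5 passed (log2 -1.39, adjusted p = 0.00335). Gabbr1 had 64.0, 30.2 and 27.8 CPM in Positive, against 54.2, 60.9 and 48.4 CPM in Input (log2 -0.37, SE 0.344, adjusted p = 0.437), with Positive 1 above every Input library and the others below. Against Brain, the Choroid change in Positive over Input was lower for Grik1 (-2.81) and higher for Gabbr1 (0.88), where 30.5% of 7270 genes were lower and 21.4% higher. The lower differences of Choroid are descriptions too, since its members had to be high in Choroid Input, while Gabbr1, Gabra4, Grik1 and Grik5 reached the minimum in both fractions of Brain and Retina. The Gabbr1 difference was lost without Choroid Positive 1 (0.28, adjusted p = 0.251). Against Retina, it was lower for Grik1 (-3.22) and Gabra4 (-1.58), where 23.3% of the genes were lower and 21.7% higher. The Gabra4 difference was lost without Choroid Positive 1 (-0.94, adjusted p = 0.110), and Grik5 gained one without Choroid Positive 2 (-0.82, adjusted p = 0.00208). Grik5 and Gabra4 against Brain, and Grik5 and Gabbr1 against Retina, did not pass. Of 8 listed pigment epithelium markers all 8, of 7 melanocyte markers all 7 and of 8 photoreceptor markers 7 were lower in Choroid Positive. Such counts are descriptions for markers listed through Input alone, as were 4439 of the 7569 Choroid genes. Photoreceptor markers summed to 0.0273 to 0.0483% of counts in Positive and 0.192 to 0.237% in Input libraries. Of 6 listed neuronal markers 3 were lower and 1 higher, with sums of 0.0159 to 0.0342% in Positive and 0.0208 to 0.0565% in Input libraries. Their part in the Choroid result was not tested.

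**Figure D5:**
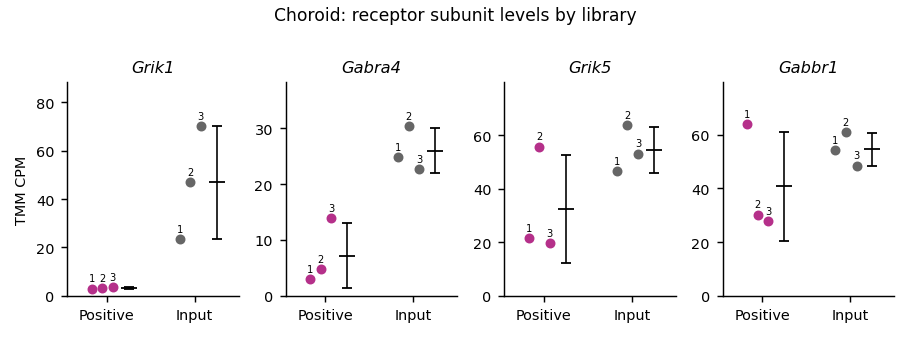
Levels of 4 receptor subunit genes in Choroid, as TMM-normalised CPM (linear axis from 0), with 1 point per library numbered by replicate and the mean with its SD beside the points. Grik1 and Gabra4 are lower in every Positive library, while the groups of Grik5 and Gabbr1 overlap.

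The partners of the receptors were read from gene lists. The counts stand beside all genes, of which 38.3% were higher and 39.7% lower in Brain. In Retina 15.3% were higher and 10.8% lower, and in Choroid 16.3% higher and 20.2% lower. Of the 7569 Choroid genes, 4439 were listed through Input alone and 137 through Positive alone. In Brain these numbers were 609 and 528 of 13957 genes, and in Retina 874 and 329 of 12827. A gene listed through 1 fraction alone had to be high there. Lower values of genes listed through Input alone, and higher values of genes listed through Positive alone, are therefore descriptions. This holds for partner and marker lists in every tissue, and which of their genes entered that way is not given here. Of 16 auxiliary subunits of AMPA and kainate receptors all 16 were lower in Brain Positive, led by Neto2, a kainate receptor partner (log2 -1.75), and Shisa7 (log2 -1.64). In Retina Positive 1 of 15 was lower, Cacng5 (log2 -0.39). Of the scaffolds of excitatory synapses 21 of 22 were lower in Brain, led by Nptxr (log2 -1.99) and Dlgap2 (log2 -1.63). In Retina 3 of 21 scaffolds were higher, a share near the 15.3% of all genes, and 6 were lower. The higher ones were the 3 Shank genes, Shank2 (log2 1.03), Shank3 (log2 0.68) and Shank1 (log2 0.67), and the lower ones were led by Dlg4, which encodes PSD-95 (log2 -0.67), and Nptx1 (log2 -0.54). In Choroid 1 of 9 was higher, Shank3 (log2 2.61), and 4 were lower, led by Dlg3 (log2 -2.76) and Dlgap1 (log2 -2.74).

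Of 13 scaffolds of inhibitory synapses and GABA-B partners 8 were lower in Brain, led by Slitrk3 (log2 -1.50) and Kctd16 (log2 -1.31). The 4 higher ones were led by Kctd12b (log2 2.77) and Gabarap, a GABA-A trafficking and autophagy protein (log2 1.06). Kctd12 and Kctd12b encode the kind of protein that binds GABA-B receptors, and both were higher in every tissue: Kctd12b by 3.60 and Kctd12 by 2.36 on the log2 scale in Retina, and by 2.52 and 0.83 in Choroid. In Brain Kctd12 was higher by 0.62. Where either gene was listed through Positive alone, its increase is a description. The list had 3 higher and 2 lower of 12 in Retina and 2 higher and 1 lower of 7 in Choroid, counts that are not read as a result about the list. All 3 listed glycine receptor genes were lower in Brain, led by Glra1 (log2 -1.47) and Glrb (log2 -0.89), none of 4 passed in Retina, and in Choroid the 1 listed, Glrb, was lower (log2 -2.30).

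Among genes that make, carry or break down GABA, 7 of 9 were lower in Brain, led by the astrocyte transporter Slc6a11 (log2 -1.48) and the synthesising enzyme Gad2 (log2 -1.01). The 2 higher ones were the transporters Slc6a13 (log2 4.58) and Slc6a12 (log2 4.41). In Retina 5 of 9 were lower and none was higher, and they included Slc6a13 (log2 -1.36) and Gad1 (log2 -0.52). In Choroid 2 of 4 were lower, Slc6a13 (log2 -3.01) and Abat (log2 -2.24). The Brain increases were alongside 8 fibroblast markers that were all higher in Brain Positive, with sums of 0.166 to 0.247% of counts in Positive and 0.0182 to 0.0200% in Input libraries. Their part in these increases was not tested. Of the genes for glutamate, 10 of 14 were lower in Brain, led by the vesicular transporters Slc17a7 (log2 -1.47) and Slc17a8 (log2 -1.42), and 4 were higher, led by the cystine and glutamate exchanger Slc7a11 (log2 2.92) and the glutamine transporter Slc38a2 (log2 1.99). In Retina 2 of 15 were lower, Slc1a2 (log2 -0.66) and Slc17a6 (log2 -0.53), and Glud1 was higher (log2 0.32). In Choroid 1 of 9 was higher, Glud1 (log2 0.96), and 4 were lower, led by Slc38a1 (log2 -3.11) and Slc1a1 (log2 -2.91).

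The cascade that links Grm6 to its channel in ON bipolar cells was also listed. In Retina Positive 4 of 11 were higher, led by the G protein subunit Gng13 (log2 0.81) and Nyx, a synaptic anchor of the complex (log2 0.58), and 2 were lower, Rgs9bp (log2 -0.67) and Lrit3 (log2 -0.59). The channel gene Trpm1 averaged 283.5 ± 33.1 CPM in Retina Positive and 215 ± 31.8 CPM in Retina Input libraries (SD, n = 3 each; log2 0.40, adjusted p = 0.0580) and did not pass. All 6 listed genes were lower in Brain, and 3 of 4 were lower in Choroid, led by Trpm1 (log2 -2.48) and Gnao1 (log2 -2.05). Between Retina and Brain, the difference in Positive over Input was higher for 12 of 15 auxiliary subunits, 19 of 21 excitatory scaffolds and all 6 cascade genes, with none lower in these lists, where 28.9% of all genes were higher and 20.0% lower.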

How the data were processed

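Per the labels, Input was saved from the same supernatant as Positive, and libraries were directional. The deposited raw values hold expected counts that need not be whole, and the authors also deposited log2 values normalized to the Input. The submitters' processing notes give mm10 as the build and list DESeq. Aligner, counting program and its use of strand: not given in the sources used here. Genes with a raw value of at least 50 in all libraries of at least 1 fraction were listed, per the file headers.

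Expected counts were rounded and fitted per tissue with edgeR 4.0.16 in R 4.3.3 (TMM, filterByExpr at a minimum count of 10 that left out 0 genes, quasi-likelihood test, 4 residual degrees of freedom). Retina and Brain were fitted together over 12438 genes, and all 3 tissues over 7270 genes. The Benjamini-Hochberg adjustment ran over all genes tested, with a threshold of 0.05. Fits were also run on simulated data with 200 changed genes. That simulation started from equal means in all groups, unlike these data, and its outcome is not given here. No libraries were duplicates.

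Levels are TMM CPM, per kb of GENCODE M21 exon length, which is annotated on the same assembly. Positions came from RefSeq on GRCm38.p6, in which all 44 members matched. Same-numbered Input and Positive libraries are pairs by protocol. The main fits had no term for these pairs, and the replicate block added one. The deviations from group means correlated above 0.1 in 7 of 9 pairs (-0.0378 to 0.34), and the labels state no pairing across tissues.

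Library values are given for up to 8 called members each way per Positive over Input comparison, up to 6 in the others, and members of 1 table. Exceptions were named after their values were seen. Members and lists were chosen with earlier results of these data known. Alternatives were DESeq2 size factors and the DESeq2 1.42.0 Wald test, limma 3.58.1 on the log2 values, no filter, a filter at the median count, an adjusted p under 0.01, a log2 change of at least 1, the replicate block and leaving out each library. The block for Retina against Brain within a fraction joined same-numbered libraries of both tissues and was chosen after seeing the data. Values of some members and markers are not reported here, while counts, shares and medians include them.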

Additional observations from a re-analysis of the deposited data

Results flagged for a closer look

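The change in Positive over Input differed between tissues for members that included the following, each by an interaction test in edgeR with an adjusted p under 0.05, and values are differences of log2 fold changes. Among Retina minus Brain differences, those of the AMPA genes were 1.21 (Gria1), 1.32 (Gria2), 0.97 (Gria3) and 1.14 (Gria4). Those of the NMDA genes were 0.86 (Grin1), 1.60 (Grin2b), 0.69 (Grin2c) and 0.89 (Grin3a). Those of the kainate and delta genes were 0.50 (Grik1), 1.11 (Grik2), 0.72 (Grik3), 0.68 (Grik5) and 1.63 (Grid1). Those of the metabotropic genes were 0.73 (Grm2), 0.81 (Grm4), 2.10 (Grm5) and 0.97 (Grm7). Those of the GABA-A genes were 1.09 (Gabra2), 0.92 (Gabra3), 1.56 (Gabra4), 1.13 (Gabrb2), 1.41 (Gabrd) and 1.09 (Gabrg1). Those of the GABA-B genes were 0.84 (Gabbr1) and 0.98 (Gabbr2).

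Choroid minus Brain differences were -2.81 (Grik1) and 0.88 (Gabbr1), the last of them 0.28 without Choroid Positive 1. Choroid minus Retina differences were -3.22 (Grik1) and -1.58 (Gabra4), the last of them -0.94 without Choroid Positive 1. Grik1 and Gabra4 were listed in Choroid through Input alone and had to be high there, so their lower differences are descriptions.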

How the results depend on the processing

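Over single members and settings, 2784 of 2873 values kept their side of the threshold. The call was lost by 59 (57 of them without 1 library) and gained by 30. Among values that passed in the main or the alternative fit, 0 changed direction. Values that passed in neither count as kept even where their sign changed. For example, Grin2d in Retina minus Brain went from 0.06 to as low as -0.11. With genes below the median count left out, which leaves fewer members to test, the members called were 24 in Brain (38 otherwise), 9 in Retina (14), 1 in Choroid (3), 20 for Retina Input over Brain Input (32), 17 for Retina Positive over Brain Positive (27) and 1 for Choroid minus Retina (3). In Retina, an adjusted p under 0.01 gave 6 members, a log2 change of at least 1 gave 1, and leaving out 1 library gave 7 to 16. A log2 change of at least 1 gave 15 members for Retina minus Brain (29) and 14 for Retina Positive over Brain Positive (27). DESeq2 called 16 members in Retina, 30 for Retina minus Brain and otherwise the same counts as edgeR. With the replicate block, Retina had 16 calls, and no call changed other than those named for Retina, Grm8 and Gria4. In limma, Gria4 in Retina lost its call (adjusted p = 0.0511), while Grik2 (0.0378), Grin2c (0.0253), Grin2d (0.0426), Grin3a (0.0431) and Grm4 (0.0402) gained one as lower. Of these, Grin2c was listed through Input alone. The median of all genes moved by over 0.1 with DESeq2 factors for Choroid minus Brain (0.14), with limma for Choroid (-0.12), and with genes below the median count left out for Retina minus Brain (0.12), Retina Input over Brain Input (-0.19) and Choroid minus Retina (-0.19). With the longest transcript as length, CPM per kb was 72.0 (Gabbr1), 36.1 (Grik5) and 29.5 (Gria1) in Brain Positive, 145 (Gabbr1), 74.9 (Gria1) and 128 (Grin1) in Brain Input, 38.7 (Gabbr1) in Retina Positive, and 33.4 (Gabrr2) and 44.8 (Gabbr1) in Retina Input. Depth limits Choroid most, where Positive values rest on few counts.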
